A study of Mus musculus with 12 samples.

Results

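The genes described here are 8 transcripts grouped as genes of mast cells, basophils and eosinophils, the granulocytes that act in allergy and in defence against parasites. They were chosen by symbol, with earlier results of these data known, out of 35976 gene symbols counted in each library. They are Prg2, Cst7, Cpa3, Mcpt8, Ms4a2, Fcer1a, Slc18a2 and Gzmb. Not all are particular to these cells: killer lymphocytes share Gzmb and Cst7, and Slc18a2 was counted in all 12 libraries, fresh ones included. The counts come from mouse cells labelled as haematopoietic stem cells (HSCs), the blood-forming cells of the marrow, sorted as cells that lacked lineage markers and carried c-Kit and Sca-1. The study asked how CD38, a surface enzyme that consumes NAD, acts on these cells at rest, on activation and with age. Its 12 libraries formed 6 groups of 2. Young fresh cells came straight from mice aged 2 months, wild type (WT) or labelled knockout (KO) for Cd38, and old fresh cells from mice aged 24 months, WT or labelled KO. Stimulated cells came from mice aged 2 months, WT or labelled KO, and were kept outside the body with cytokines for 24 hours. The strain, the Cd38 allele, the cytokines and the animals behind each library are not given in the sources used here, so p-values measure the spread between these libraries, which may be technical.

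Mast cells, basophils and eosinophils keep ready-made products in granules. Mast cells and basophils carry the high-affinity receptor for IgE, and its crosslinking releases histamine and proteases. Eosinophils store toxic basic proteins, of which major basic protein, the product of Prg2, forms the crystal core of the granule. All of them descend from marrow progenitors in which GATA factors are active, and early progenitors already transcribe some granule genes before a granule is visible.

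Total counts per library were 1600155 to 1963635 in young fresh, 2692245 to 3249721 in stimulated and 3796591 to 5164720 in old fresh libraries, so a count of 3 stood for 1.53 to 1.87 CPM (the count divided by the library total, on the usual CPM scale) in young fresh and 0.581 to 0.790 CPM in old fresh libraries. Fresh libraries were far less alike than stimulated ones. The correlation of log2 levels between the 2 libraries of a group was 0.652 to 0.727 in fresh and 0.959 to 0.964 in stimulated groups, as a description across 9690 genes. From 30 to 126 genes per fresh group had 0 counts in one library and over 50 CPM in the other, against 0 in either stimulated group. The transcript of Cd38 was counted in every library, at 17.5 and 24.5 CPM in young fresh WT, 62.6 and 31.7 CPM in young fresh cells labelled KO, 1.07 and 9.28 CPM in stimulated WT and 4.00 and 2.60 CPM in stimulated cells labelled KO. In old cells it was 67.2 and 36.3 CPM in WT and 12.1 and 18.6 CPM in KO. The libraries labelled KO thus lay above WT in young fresh, among WT in stimulated and below WT in old cells. Tags come from the 3′ end and the deleted part is not given in the sources used here, so these counts do not check the labels. KO below means the libraries labelled so. One library, young fresh WT replicate 1, had no Xist counts and 199 CPM of Y-linked genes, whereas the other 11 had Xist at 185 to 806 CPM and at most 7.38 CPM of Y-linked genes. All 9 markers of the sorted cells, among them Kit, Ly6a and Procr, were detected in every group.

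In young fresh cells 7 of the 8 genes had no or few counts, and after 24 hours of stimulation 6 of these 7 were counted in every library. The members detected numbered 1 or 2 per young fresh library, 7 per stimulated WT library and 8 per stimulated KO library. Without Slc18a2, their summed level was 0 to 14.6 CPM in young fresh cells and 307 to 889 CPM in stimulated cells. Slc18a2 went the other way: it was present in all 12 libraries and fell on stimulation. Every stimulated library was also deeper than every young fresh one, and the bounds below allow for the depth. These bounds cover counting error only. Fresh libraries of a group differed by more than counting error, so the bounds are not limits on the level in the cells. In bulk RNA, a change in the number of cells of one kind and a change in the RNA per cell cannot be told apart.

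**Figure D1:**
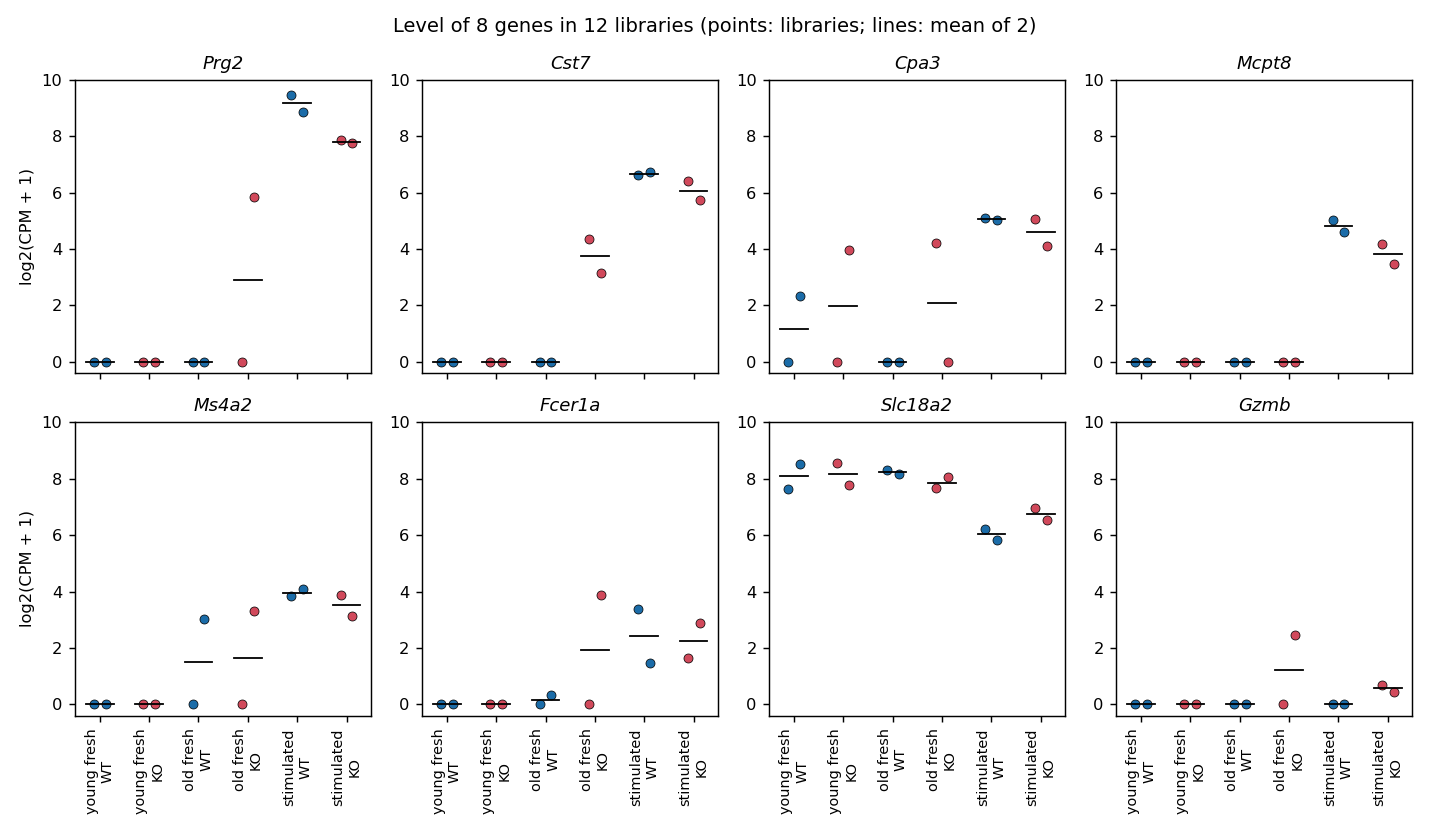
Level of each of the 8 genes, as log2(CPM + 1), in the 12 libraries. Blue points are WT and red points KO libraries, and each line is the mean of the 2 log2 values of a group. Prg2, Cst7, Mcpt8 and Ms4a2 sit at 0 in all 4 young fresh libraries and above 0 in all 4 stimulated ones, while Slc18a2 is lower in the stimulated libraries.

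Among the granule proteins, Prg2 (mouse build mm10, chr2:84980461-84983632, plus strand, GENCODE M21) had 0 counts in all 4 young fresh libraries. It reached 704 and 465 CPM in stimulated WT and 230.5 and 214 CPM in stimulated KO cells. The lowest stimulated library was therefore far above every young fresh one. Set against 3 counts over the young fresh group, Prg2 was at least 961-fold higher in stimulated cells by counting error alone. The quasi-likelihood test of edgeR gave an adjusted p of 0.000507 over 8 young libraries. In that comparison 4.12% of 10786 genes tested changed, 2.27% higher and 1.84% lower in stimulated cells. The call held in every alternative run, also without young fresh WT replicate 1 (adjusted p = 0.00734).

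Cpa3 (chr3:20215620-20242181, minus strand) encodes carboxypeptidase A3, a protease of mast cell granules that appears early in their development. It had 7 counts, or 3.99 CPM, in young fresh WT replicate 2, and 28 counts, or 14.6 CPM, in young fresh KO replicate 4, with 0 in the other 2 libraries. Stimulated WT libraries had 32.9 and 31.8 CPM, and stimulated KO libraries 32.6 and 16.3 CPM. Every stimulated library lay above every young fresh one, but the highest fresh value came close to the lowest stimulated one. The log2 fold change of 2.72 ± 1.35 (SE) did not pass (adjusted p = 0.264). Without young fresh KO replicate 4, where most of the fresh counts lay, it was 6.34 with an adjusted p of 0.0375.

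Mcpt8 (chr14:56082166-56085273, minus strand), a serine protease that marks mouse basophils, was at 0 in all 8 fresh libraries. It was counted at 31.9 and 23.2 CPM in stimulated WT and at 17.2 and 10.03 CPM in stimulated KO cells. Stimulated cells were at least 49.6-fold above young fresh ones (adjusted p = 0.0306). With any 1 stimulated library left out, the adjusted p was 0.166 to 0.205.

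Gzmb (chr14:56258838-56262260, minus strand), granzyme B, a serine protease best known from killer lymphocytes and also made by some mast cells and basophils, stayed near 0. It had 2 counts in stimulated KO replicate 3, 1 count in stimulated KO replicate 4 and none in stimulated WT or young fresh cells. Too few counts remained for a test. Mcpt8 and Gzmb lie at the 2 ends of a stretch of 180095 bases with 9 protein-coding genes, the cluster of granzymes and cathepsin G. Only Mcpt8, Ctsg and Gzmb had any count in the 12 libraries, and the 6 granzyme genes between Ctsg and Gzmb had none. Ctsg, a protease of neutrophil and monocyte precursors, averaged 508 CPM over the stimulated and 18.0 CPM over the 8 fresh libraries, and rose by 5.53 ± 0.44 on the log2 scale (adjusted p = 0.000994).

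**Figure D2:**
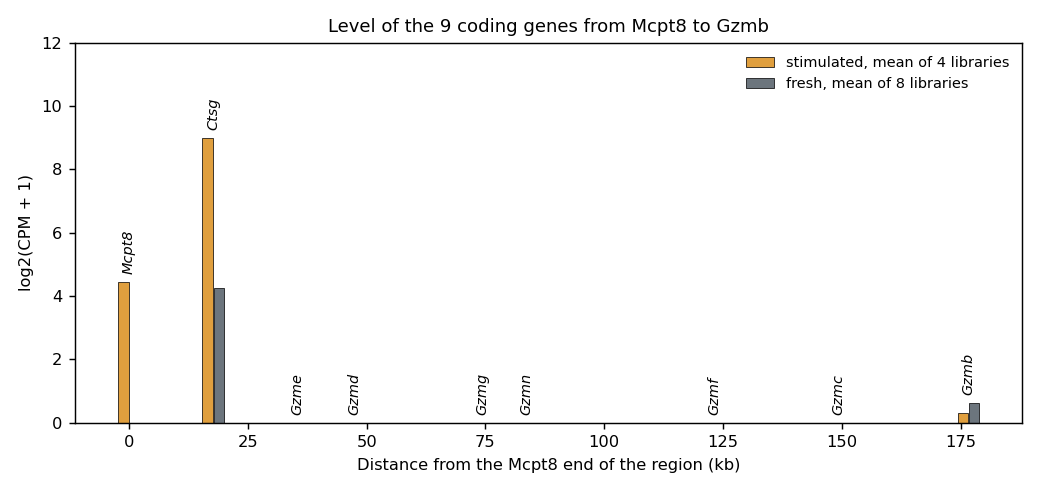
Mean level, as log2(CPM + 1), of the 9 coding genes from Mcpt8 to Gzmb, placed by their distance from the Mcpt8 end in kb. Orange bars are the mean of 4 stimulated and grey bars the mean of 8 fresh libraries. Ctsg reaches 508 CPM in stimulated cells, and the 6 genes from Gzme to Gzmc have no bar because they had no counts.

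Cst7 (chr2:150570415-150578944, plus strand) encodes cystatin F, an inhibitor of the cysteine proteases that activate granule enzymes. It was at 0 in all 4 young fresh libraries and at 97.8, 105, 83.1 and 52.7 CPM in stimulated WT replicates 1 and 2 and KO replicates 3 and 4. Stimulated cells were at least 204-fold higher (adjusted p = 0.00339), and the call held in every alternative run.

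Both receptor genes had few counts. Ms4a2 (chr19:11615523-11623719, minus strand), the beta chain of the IgE receptor, had 0 counts in the young fresh libraries. It had 13.2 and 16.1 CPM in stimulated WT and 13.8 and 7.80 CPM in stimulated KO cells, at least 30.9-fold higher (adjusted p = 0.0406). The adjusted p was 0.235 to 0.290 with any 1 stimulated library left out and 0.131 with the replicate number as a block. Fcer1a (chr1:173221284-173227214, minus strand), the alpha chain that binds IgE, was also at 0 in young fresh cells, with 9.31 and 1.78 CPM in stimulated WT and 2.15 and 6.31 CPM in stimulated KO cells. These are 5 to 26 counts per library. The groups did not overlap, the level was at least 11.50-fold higher and the test did not pass (adjusted p = 0.0731). The third chain of the receptor, Fcer1g, which many leukocytes share, was at 8.97 ± 10.7 CPM (SD, n = 4) in young fresh and 16.3 ± 6.03 CPM (SD, n = 4) in stimulated cells (adjusted p = 0.129 with edgeR).

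Slc18a2 (chr19:59260896-59296012, plus strand) encodes the vesicular monoamine transporter, which loads histamine and serotonin into granules. Young fresh libraries had 197 and 368 CPM in WT and 376 and 217 CPM in KO. Stimulated libraries had 72.7 and 56.4 CPM in WT and 123 and 90.6 CPM in KO, all below the lowest young fresh value. Pooled counts were 3.36-fold lower in stimulated cells, and the log2 change was -1.94 ± 0.28 (SE, adjusted p = 0.0123). With any 1 stimulated library left out, the adjusted p was 0.0576 to 0.0899. An antisense gene model, Gm29261, overlaps Slc18a2, and the strand setting of the counting is not given in the sources used here.

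Of the 8 genes, 7 entered the test of stimulation and Gzmb did not. Changed genes were Prg2, Cst7, Mcpt8 and Ms4a2, which rose, and Slc18a2, which fell. Without young fresh WT replicate 1 the count was also 5, and it was 2, Prg2 and Cst7, with any 1 stimulated library left out. In 6 of the 8 genes every stimulated library was above every young fresh one, and in Slc18a2 every one was below. Over all genes tested, 16.7% and 4.01% separated in these ways. Because Prg2, Cst7, Mcpt8, Ms4a2 and Fcer1a passed the filter on low counts only through the stimulated libraries, their count is a description.

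Sequences upstream of the start are shown for Cst7, which rose, for Fcer1a, the IgE-binding chain, and for Slc18a2, which fell, because GATA factors are known to act on mast cell genes. Each holds the 250 bases before the start used for the gene (RefSeq, GRCm38.p6), on the gene's own strand, 5′ to 3′. AGATAA, or its reverse complement TTATCT, is in capitals. Cst7 is chr2:150570165-150570414 on the plus strand, Fcer1a is chr1:173227230-173227479 on the minus strand and Slc18a2 is chr19:59260628-59260877 on the plus strand.
Cst7: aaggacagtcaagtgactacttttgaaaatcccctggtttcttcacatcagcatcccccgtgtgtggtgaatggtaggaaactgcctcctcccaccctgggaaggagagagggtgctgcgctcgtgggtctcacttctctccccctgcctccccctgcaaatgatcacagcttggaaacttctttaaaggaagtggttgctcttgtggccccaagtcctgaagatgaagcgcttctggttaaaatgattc
Fcer1a: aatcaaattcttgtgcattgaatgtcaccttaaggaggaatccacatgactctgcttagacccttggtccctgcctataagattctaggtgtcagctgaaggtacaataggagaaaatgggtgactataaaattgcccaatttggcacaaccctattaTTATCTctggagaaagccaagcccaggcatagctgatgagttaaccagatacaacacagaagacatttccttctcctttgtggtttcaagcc
Slc18a2: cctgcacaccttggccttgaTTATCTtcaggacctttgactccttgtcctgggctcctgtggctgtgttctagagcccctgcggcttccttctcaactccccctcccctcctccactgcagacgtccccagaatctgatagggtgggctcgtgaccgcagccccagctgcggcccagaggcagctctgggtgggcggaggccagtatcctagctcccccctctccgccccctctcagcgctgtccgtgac

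RefSeq windows were matched for 7 of the 8 genes. AGATAA, on either strand, lay in 4 of the 7, in Fcer1a 92 bases, in Cpa3 46 bases and in Slc18a2 230 bases before the start, and in Ms4a2 at 3 places, 224, 37 and 11 bases before it. Of all 32851 windows of this length 9.99% held it. TGATAA was in 0 of the 7 and in 7.94% of all windows. TGTGGT, the core letters read by RUNX factors, was in 5 of the 7 (Fcer1a, Cst7, Cpa3, Mcpt8 and Gzmb) and in 14% of all windows, and CATGTG, an E-box read by MITF, was in Fcer1a only and in 12.3% of all windows. Ms4a2, which rose, and Slc18a2, which fell, held AGATAA, and Cst7 and Mcpt8, which rose, did not. The windows of Fcer1a, Cpa3 and Ms4a2 overlapped the RefSeq span of their gene in part, and that of Mcpt8 lay wholly inside it. The TGTGGT of Mcpt8 and its lack of AGATAA are therefore not readings of sequence outside the gene. The Ms4a2 matches at 37 and 11 bases lay inside the span of Ms4a2. A match is a description of letters, not a site of binding.

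Other genes of these cells were read from lists of their known products. Over all genes tested, 2.27% were called higher and 1.84% lower in stimulated cells, the shares to set beside each list's count. Of 16 eosinophil genes, 13 were tested, 5 were higher in stimulated cells and 0 lower. Epx, eosinophil peroxidase, was at 0 in all 8 fresh libraries and at 15.4 to 59.4 CPM in the stimulated ones, at least 81.4-fold above young fresh cells (adjusted p = 0.0183). Ear6, Ear1 and Ear2, ribonucleases of eosinophil granules, were at least 89.3-fold, 56.9-fold and 33.9-fold higher (adjusted p = 0.0158, 0.0303 and 0.0421). The Ear genes are close copies of each other, so reads may be split between them. Siglecf, a sialic acid receptor of eosinophils, was at least 33.9-fold higher (adjusted p = 0.0393). Like Prg2, these 5 genes were at 0 in young fresh cells and passed the filter only through stimulated libraries, so their count is a description. With any 1 stimulated library left out, 0 of the 5 passed. Prg3, which lies next to Prg2 and encodes a second major basic protein, was at 0 in all fresh libraries and at 10.6 ± 6.56 CPM (SD, n = 4) in stimulated ones. Il5ra, the receptor for the eosinophil growth factor, had 13 counts in all, and Ear10 had none.

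**Figure D3:**
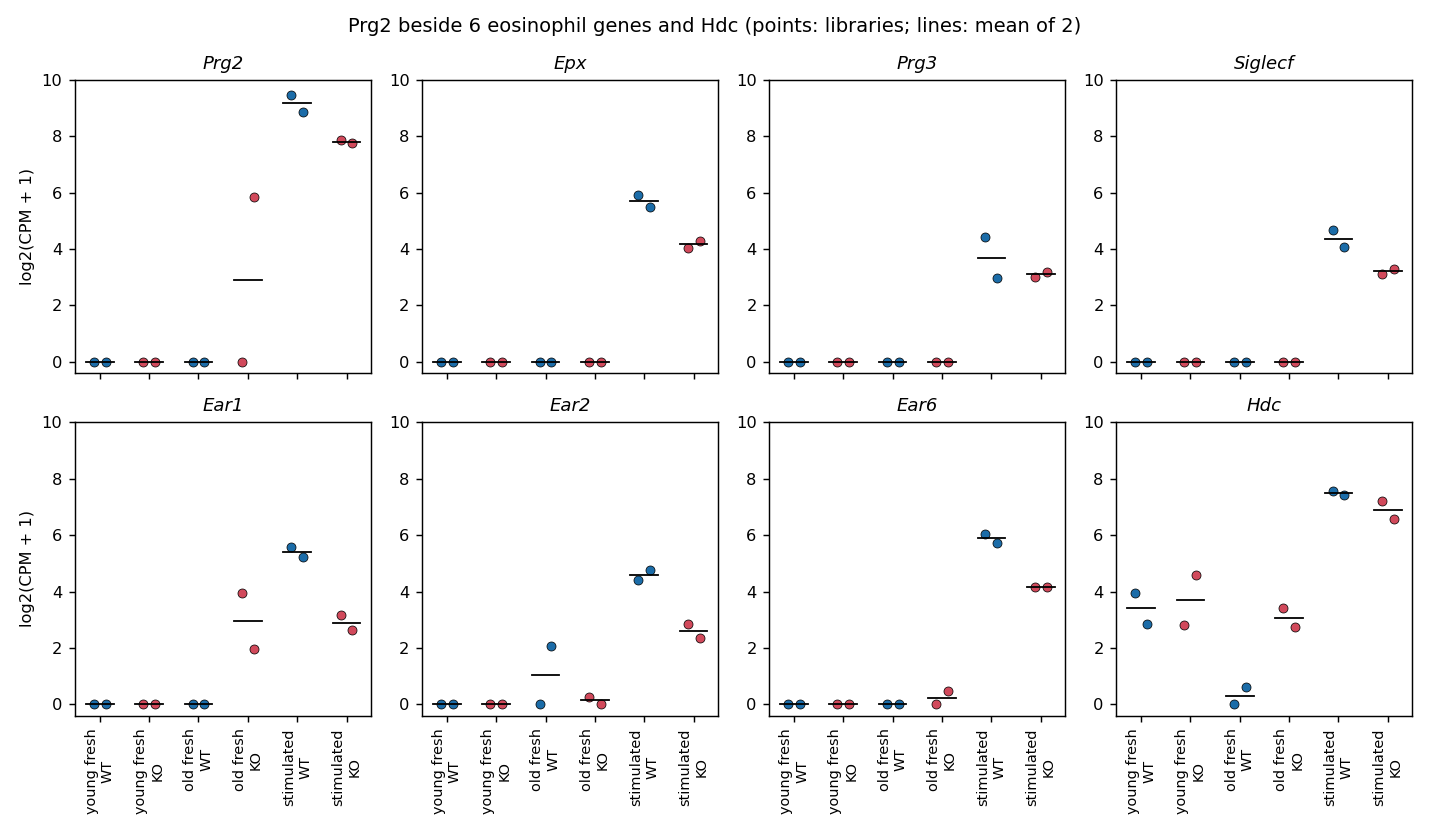
Levels, as log2(CPM + 1), of Prg2, of 6 eosinophil genes and of Hdc in the 12 libraries. Points are libraries, blue for WT and red for KO, and lines are the mean of the 2 log2 values. Epx, Siglecf and Prg3 are at 0 in all 8 fresh libraries, and the Epx, Ear1, Ear2 and Ear6 points of stimulated KO cells lie below those of stimulated WT cells.

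The mast cell list of 25 genes had 9 tested members, and 1 of them, Hdc, rose. Hdc, the enzyme that makes histamine, was at 12.4 ± 7.98 CPM (SD, n = 4) in young fresh and 150.4 ± 40.9 CPM (SD, n = 4) in stimulated cells, a log2 change of 3.45 ± 0.49 (adjusted p = 0.0121). The adjusted p of Hdc was 0.0583 without stimulated WT replicate 1 and 0.080 without stimulated KO replicate 3. Genes of mature mast cells were absent or nearly so: 10 of the 25, among them the tryptases Tpsab1 and Tpsg1 and the receptor gene Mrgprb2, had 0 counts in all 12 libraries. Cma1, Mcpt4 and Tpsb2 had 9, 2 and 1 counts, all in stimulated KO cells. The median log2 change of the 9 tested genes was 0.01, beside 0.21 over all genes. Of 20 basophil genes 13 were tested, with a median of 0.12, and Prss34, a protease of mouse basophils, rose. It was at 0 in all fresh libraries and at 13.2 ± 0.48 CPM in stimulated WT and 5.59 ± 0.50 CPM in stimulated KO cells (SD, n = 2 each, adjusted p = 0.0481), at least 22.4-fold above young fresh cells. It too passed the filter only through the stimulated libraries, so its call is a description. Its call was lost with any 1 stimulated library left out. The basophil genes Cd200r3, Itga2 and Il4 were at 0 in all 12 libraries.

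Of 16 regulators of these lineages, all 16 were tested, 1 rose and 1 fell, with a median of 0.68. Irf8, which directs monocyte and also basophil and mast cell progenitors, rose by 4.98 ± 1.09 (adjusted p = 0.0462), and Lmo2, a partner of GATA factors, fell by 1.17 ± 0.11 on the log2 scale (adjusted p = 0.0017). Irf8 had 12 counts over the young fresh libraries together and passed the filter only through the stimulated ones, so its call is a description. Its call was also lost with any 1 stimulated library left out. Gata2, needed for mast cells, was at 239.5 ± 29.3 CPM (SD, n = 4) in young fresh and 187 ± 80.4 CPM (SD, n = 4) in stimulated cells (adjusted p = 0.148 with edgeR). Of 17 genes that relay the IgE receptor signal, 14 were tested and 0 passed. Of these, Inpp5d and Btk had log2 changes of 0.50 ± 0.25 (adjusted p = 0.256) and 0.29 ± 0.20 (adjusted p = 0.406). The list's median was 0.40. Of 18 genes of granule storage and processing, 16 were tested, with a median of 0.21, and 2 fell. Ctsc, the cathepsin that activates granule proteases and is a target of cystatin F, fell by 1.06 ± 0.22 on the log2 scale (adjusted p = 0.0389), and Snap23, a docking protein, fell by 1.28 ± 0.26 (adjusted p = 0.0357). Both calls were lost with any 1 stimulated library left out, that of Ctsc also without young fresh WT replicate 1 and that of Snap23 without young fresh WT replicate 2. Of 11 other genes of the Ms4a cluster, 5 were tested and 0 passed. Ms4a3, the neighbour of Ms4a2 and a marker of granulocyte and monocyte precursors, was at 9.61 ± 16.6 CPM (SD, n = 4) in young fresh and 115 ± 34.4 CPM (SD, n = 4) in stimulated cells (adjusted p = 0.0755).

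Markers of other cell types moved with stimulation as well. Of 13 markers of killer lymphocytes, which share Gzmb and Cst7 with these genes, the summed level was 15 to 34.6 CPM in young fresh and 131 to 253 CPM in stimulated libraries. Nearly all of it was Nkg7, at 20.4 and 166 CPM. Cd3e, Cd8a, Prf1, Eomes and Tbx21 were at 0 in all 12 libraries. The 10 neutrophil lineage markers summed to 5087 to 9667 CPM in young fresh and 2607 to 4432 CPM in stimulated libraries. Of these, 4 rose and 4 fell, beside 2.27% and 1.84% of all genes tested. The 7 monocyte and dendritic markers summed to 18.3 to 50.6 CPM in young fresh and 125 to 240 CPM in stimulated libraries. The 6 B lineage markers summed to 0.625 to 21.9 CPM in young fresh and 24.6 to 212 CPM in stimulated libraries, with 0 of 3 tested called. The 8 erythroid markers summed to 212 to 318 and 197 to 431 CPM and the 5 megakaryocyte markers to 249.8 to 572 and 157 to 568 CPM, with 0 called. Of the markers of the sorted cells, which summed to 2085 to 2373 and 1966 to 2178 CPM, Hlf, a stem cell regulator, fell by 1.04 ± 0.14 on the log2 scale (adjusted p = 0.011) and Flt3 rose by 2.45 ± 0.42 (adjusted p = 0.0204). The call of Flt3 was lost with any 1 stimulated library left out, and that of Hlf with any 1 but WT replicate 2. The part of these cells in the levels of the 8 genes was not tested.

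In stimulated cells, Prg2 was the 1 gene of the 8 that differed between genotypes. It was lower in KO cells, with both KO libraries below both WT libraries. Pooled counts were 2.62-fold lower in KO, and the ratio of KO to WT was 0.381 with an exact 95% interval of 0.357 to 0.407 that covers counting error only. The fit of the 4 stimulated libraries gave a log2 change of -1.42 ± 0.17 (SE, adjusted p = 0.0011). In this comparison 1.23% of 10494 genes were called, and 0.467% were called lower in KO. Without stimulated KO replicate 3 the change was -1.48 with an adjusted p of 0.0537, and in a fit of all 12 libraries it was -1.45 with an adjusted p of 1.

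The other 6 tested genes did not pass. Mcpt8 had a log2 change of -1.03 ± 0.36 (adjusted p = 0.254) and Cst7 one of -0.60 ± 0.22 (adjusted p = 0.271), and in both genes the KO libraries lay below the WT libraries. Cpa3, Ms4a2 and Fcer1a had changes of -0.42 ± 0.33, -0.45 ± 0.45 and -0.44 ± 0.83, with overlapping libraries and adjusted p-values of 0.723, 0.794 and 0.914. Slc18a2 had a change of 0.70 ± 0.21 (adjusted p = 0.166), and both KO libraries lay above both WT libraries. It passed with no filter on low counts (adjusted p = 0.0469) and without stimulated WT replicate 1 (adjusted p = 0.0263). The median log2 change of the 7 tested genes was -0.45, beside -0.00019 over all genes. Libraries of the 2 genotypes separated with KO lower in 3 of the 8 genes and with KO higher in 2, Slc18a2 and Gzmb. Over all genes tested, 18.4% separated with KO lower and 22.9% with KO higher, and nothing more is read from these counts.

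**Figure D4:**
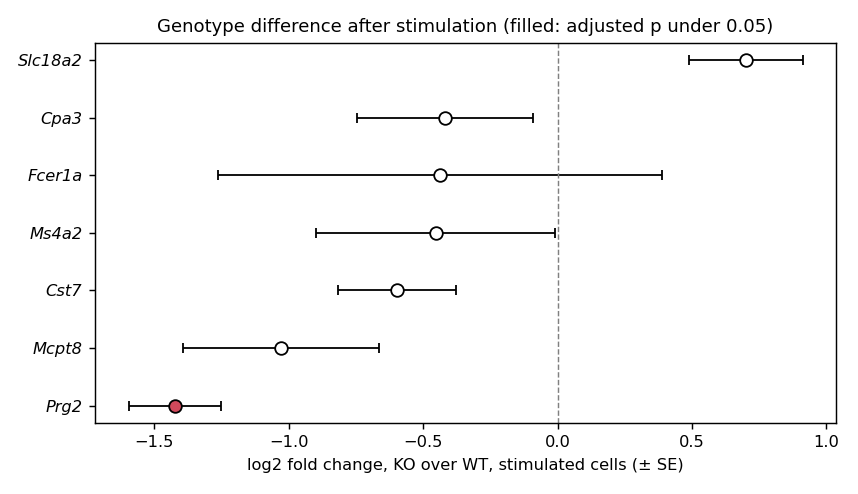
Log2 fold change of KO over WT in stimulated cells, with its SE, for the 7 genes tested with edgeR on 4 libraries. The filled point marks an adjusted p under 0.05, which is Prg2 at -1.42 ± 0.17, and Slc18a2 is the 1 gene on the positive side, at 0.70 ± 0.21.

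Other eosinophil genes were lower as well. Of 13 tested members of that list, 4 were lower and 1 higher in stimulated KO cells, and the median log2 change was -0.91. Over all genes tested 0.467% were called lower in KO. The list was chosen with earlier results of these data known, so its count is a description. Ear1, Ear2 and Ear6, which are among the 4, are close copies whose reads may be split between them. Ear1 was at 46.2 and 36.8 CPM in stimulated WT and 8.0 and 5.20 CPM in stimulated KO cells, a log2 change of -2.66 ± 0.35 (adjusted p = 0.0024). Ear6 changed by -1.80 ± 0.27 (adjusted p = 0.00386), Ear2 by -2.20 ± 0.44 (adjusted p = 0.0239) and Epx by -1.64 ± 0.28 (adjusted p = 0.0114). In pooled counts, Epx was 3.07-fold lower in KO, with 59.4 and 43.9 CPM in WT against 15.4 and 18.6 CPM in KO. The gene that was higher, S100a6, is a calcium-binding protein of many cell types, at 0.69 ± 0.16 (adjusted p = 0.0432). It lost its call without stimulated WT replicate 2 and without either KO library. Without stimulated KO replicate 3, 1 of the 4 lower genes passed, namely Ear1, and in a fit of all 12 libraries 0 passed. Ear2 was also lost without stimulated WT replicate 2 and without stimulated KO replicate 4.

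In the mast cell and regulator lists 1 gene each was called between genotypes in stimulated cells, beside 1.23% of all genes tested. Rab27b, which tethers granules to the membrane, was higher in KO, at 44.0 and 41.6 CPM against 13.97 and 14.99 CPM in WT (log2 change 1.53 ± 0.29, adjusted p = 0.0168), and was the 1 mast cell gene of 9 tested that passed. Irf8 was lower in KO, at 39.7 and 30.1 CPM against 80.9 and 80.7 CPM in WT (-1.23 ± 0.23, adjusted p = 0.0162), and was the 1 regulator of 16 that passed. Both calls were lost without either of the KO libraries. Of 12 basophil, 14 receptor signalling, 16 granule storage and 4 Ms4a genes tested, 0 passed.

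Markers of other cell types also differed between genotypes in stimulated cells. Over all genes tested 1.23% were called. The marker lists were chosen with earlier results of these data known, so their counts are a description. The 5 megakaryocyte markers summed to 157 to 272 CPM in WT and 506 to 568 CPM in KO, and 2 of the 4 tested were higher in KO. Pf4, a platelet chemokine, changed by 1.39 ± 0.21 (adjusted p = 0.00475) and Vwf, von Willebrand factor, by 3.38 ± 0.65 (adjusted p = 0.0185). The 6 B lineage markers summed to 52.6 to 212 CPM in WT and 24.6 to 35.3 CPM in KO, and 2 of the 3 tested were lower in KO. Vpreb1, part of the surrogate light chain, changed by -3.08 ± 0.55 (adjusted p = 0.0142) and Ebf1, a B cell transcription factor, by -3.82 ± 0.81 (adjusted p = 0.0299). Of the 9 markers of the sorted cells, all tested, Flt3 and Cd34, which mark multipotent progenitors, were lower in KO, at -1.77 ± 0.24 (adjusted p = 0.0024) and -0.78 ± 0.16 (adjusted p = 0.0242). Mecom, a stem cell regulator, was higher at 1.16 ± 0.25 (adjusted p = 0.0314). Each of these 7 calls was lost in the fit of all 12 libraries and with at least 1 of the stimulated libraries left out. Those of Flt3, Pf4, Vpreb1, Ebf1 and Mecom were lost without KO replicate 3, those of Cd34, Vwf, Ebf1 and Mecom without KO replicate 4, and those of Vpreb1, Ebf1 and Mecom without WT replicate 2. DESeq2 did not call Pf4 or Vpreb1. The 7 monocyte and dendritic markers summed to 193 to 240 CPM in WT and 125 to 147 CPM in KO, and 1 of the 4 tested, Irf8, was lower. No tested marker of killer lymphocytes (2), the neutrophil lineage (9) or erythroid cells (6) was called. Those lists summed to 169 to 253, 4211 to 4432 and 333 to 431 CPM in WT and to 131 to 169, 2607 to 3893 and 197 to 312 CPM in KO. The part of these cells in the lower levels of Prg2 and the eosinophil genes was not tested.

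Whether the genotype difference itself changed with stimulation could be tested for few of the 8 genes. Over all genes 0% passed this interaction, 1031 of 10786 genes had an unadjusted p under 0.05 and DESeq2 called 182. Prg2, Cst7, Mcpt8, Ms4a2 and Fcer1a had no counts in either genotype of young fresh cells, so their interaction has no defined value. The interaction of Slc18a2 was 0.63 ± 0.54 (adjusted p = 0.785) and that of Cpa3 was -2.26 ± 2.59 (adjusted p = 0.873).

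In fresh cells, the 8 genes other than Slc18a2 had counts in at most 1 library of a group, except Cst7 in old KO cells. Old fresh KO replicate 4 alone held 290 counts of Prg2 (56.2 CPM), 23 of Gzmb (4.45 CPM) and 70 of Fcer1a (13.6 CPM), while KO replicate 3 had 0 of each. The 2 old WT libraries had 1 count of Fcer1a between them and none of Prg2 or Gzmb. Cpa3 was counted in old fresh KO replicate 3 only, at 17.4 CPM. Ms4a2 was counted in WT replicate 2 at 7.11 CPM and in KO replicate 4 at 8.91 CPM, with 0 in the other old libraries. Mcpt8 was at 0 in all 4. Cst7 was the 1 of these genes with counts in both old KO libraries, at 19.3 and 7.94 CPM, and it had 0 in both old WT libraries.

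Counts in 1 library of a pair were common in fresh cells. In old fresh cells 30 genes in KO and 42 in WT had 0 counts in 1 library and over 50 CPM in the other, and Prg2 was among the first. Cst7, Cpa3, Ms4a2 and Slc18a2 entered the fit of the 8 fresh libraries, the other 4 genes had too few counts, and 0 passed in any comparison. For old KO against WT, Cst7 had an adjusted p of 1 and an unadjusted p of 0.0859, and its level was at least 35.5-fold higher in KO by counting error alone. Over all 10680 genes 0% passed for KO against WT in young fresh cells and 0% in old fresh cells. Unadjusted p-values under 0.05 numbered 519 and 428, and DESeq2 called 137 and 105 genes, none of them among the 8. The markers of killer lymphocytes summed to 17.5 and 91.9 CPM in old WT and 74.8 to 115 CPM in old KO cells, with Nkg7 at 45.7 CPM in KO replicate 4 and 2.55 CPM in KO replicate 3. Klrb1c, another of these markers, rose from young to old fresh cells by 8.93 ± 1.62 on the log2 scale (adjusted p = 0.00343 with edgeR). It was the 1 called of 3 tested markers, whose median was 0.40, beside 2.72% of all genes called. Klrb1c had 0 counts in young fresh KO cells, so the size of its change is poorly defined and its call is a description. In old cells the log2 change of Klrb1c in KO over WT was -0.06 ± 1.44. The part of the killer lymphocyte markers in the counts of Gzmb and Cst7 was not tested.

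Slc18a2 did not pass in any fresh comparison. Old WT libraries had 313 and 285 CPM and old KO libraries 203 and 265 CPM, within the range of the young fresh libraries. The log2 change of KO over WT was 0.06 ± 0.40 in young and -0.40 ± 0.39 in old cells (adjusted p = 1 in both), and the interaction of genotype and age was -0.46 ± 0.56 (adjusted p = 0.9999), where 0% of all genes passed, 587 had an unadjusted p under 0.05 and DESeq2 called 104. The change from young to old was -0.01 ± 0.28 (adjusted p = 0.9999), beside 2.72% of genes called. Cpa3 changed with age by -2.61 ± 2.33 (adjusted p = 0.711). Age went with depth, since every old library was deeper than every young fresh one, and the 2 cannot be told apart.

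Over the 12 libraries the genes most like Prg2 were Atp8b4, Plac8 and Srsf2, with Pearson correlations of log2 CPM of 0.998, 0.948 and 0.934 among 6453 genes. Atp8b4, a phospholipid transporter subunit, was at 0 to 25.6 CPM in fresh and 69.8 to 151 CPM in stimulated libraries. The genes most like Cst7 were Calm3, Mybbp1a and Fcgr3 (0.959, 0.947 and 0.939), and Fcgr3, a receptor for IgG, was at 0 to 17.8 CPM in fresh and 58.7 to 117 CPM in stimulated libraries. Those most like Slc18a2 were Naca, Mycn and Rps7 (0.959, 0.931 and 0.918), and Mycn was at 148 to 301 CPM in fresh and 31.8 to 114 CPM in stimulated libraries. The 4 stimulated libraries in these correlations share their culture step, and libraries of a group are close in depth. Among the 8 fresh libraries, Prg2 and Fcer1a correlated at 0.994, because both were counted in old fresh KO replicate 4.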

How the data were processed

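Counts of 3′ tags were analysed in 12 libraries of sorted mouse cells, made with the QuantSeq 3′ mRNA-Seq FWD kit, per the labels' protocols. The values deposited by the authors are raw read counts per gene symbol, made with HISAT2 2.2.1 and HTSeq 0.9.1 against mm10, per the submitters' processing notes, which also name DESeq2 1.34.0. The annotation, the strand setting and any use of molecular identifiers are not given in the sources used here.

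CPM is a count divided by its library's total, on the usual scale. Tests used edgeR 4.0.16 (quasi-likelihood, TMM scaling, filterByExpr set to 10 counts per library and 15 in total) in R 4.3.3, with Benjamini-Hochberg adjustment over all genes kept and a threshold of 0.05. The KO and WT groups were compared in the 4 stimulated libraries, fresh groups in the 8 fresh ones and stimulation in the 8 young ones. Fold bounds set a group at 0 to 3 counts over the group, and intervals are exact conditional 95% intervals. Bounds and intervals cover counting error only.

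The 8 genes, the 8 gene lists and the 7 marker lists were chosen with earlier results of these data known. All 8 genes are described, but not with a test value in every comparison. Where list members are named by their test, they are up to 4 with the smallest adjusted p that passed. Where none passed, they are up to 2 with the highest CPM. Not every list has named members in every comparison, and most list results in fresh cells are not given. A gene or list not named may therefore still have changed. Ear2 and S100a6, further list members named for their counts in a comparison, and genes named as at 0 were chosen after their values were seen. Most alike genes are the 3 with the highest correlation, among those averaging 20 CPM or more, with a prior count of 2. Alternatives were RLE scaling, no filter, DESeq2 1.42.0, limma 3.58.1 (voom with a weight per group), a fit of all 12 libraries, a replicate block, one genotype's difference alone and each library left out in turn. Scripts were tested on simulated data. Positions are from GENCODE M21 and promoters from RefSeq (GRCm38.p6).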

Additional observations from a re-analysis of the deposited data

How the results depend on the processing

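Of 330 values recomputed for 27 results on single genes, 23 lost a call, 3 gained one and 11 were scored as changed in sign. The other 293 were scored as unchanged in direction and side of the threshold. By the rule of the score, a value that had not passed and came out at 0 also counts as unchanged. KO against WT of Cpa3 in old fresh cells, where only KO replicate 3 had counts, was scored as unchanged in each of 8 alternatives. Such scores do not stand for a stable change. The age change of Slc18a2, with a main log2 value of -0.00517, was scored as unchanged in all 16 settings. Its pooled counts in old over young cells had a ratio of 1.05 in WT and 0.791 in KO. That score therefore does not stand for a kept direction. In no call of the 8 genes did the sign change. The scored changes of sign were in values that had not passed. For KO against WT in stimulated cells, Fcer1a ranged from -1.38 to 1.19 with a library left out, positive without WT replicate 1 and at 0.16 when KO replicate 3 was dropped. In young fresh cells Cpa3 ranged from -5.66, without KO replicate 4, to 7.51, and Slc18a2 from -0.39, without KO replicate 3, to 0.57, with -0.32 when WT replicate 1 was dropped. In old fresh cells Ms4a2 ranged from -6.44, without KO replicate 4, to 6.79, with -0.76 when WT replicate 1 was dropped. The age change of Cpa3 was 0.37 in KO libraries alone and -6.41 to 1.11 with a library left out, positive without young fresh WT replicate 2 (0.19) and KO replicate 4. Its interaction with stimulation was -7.69 to 4.98, positive without young fresh KO replicate 4. The cause was not tested.

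Of the 8 genes, 5 changed on stimulation, 3 in the fit of all 12 libraries, 2 in WT or in KO libraries alone and 2 to 6 when a library was left out. For KO against WT in stimulated cells 1 changed, 2 with no filter, 0 in the fit of all 12 libraries and 0 to 2 when a library was left out. In the other comparisons it was 0 in every setting. Over all genes, KO against WT in stimulated cells gave 129 calls, 340 with no filter, 227 with voom, 0 with all 12 libraries and 24 to 296 with a library left out. For young fresh cells the calls were 10 with no filter, 137 with DESeq2, 3 with all 12 libraries and 10 to 65 with a library left out. For old fresh cells they were 18, 105, 5 and 7 to 41, and 2 with voom. Age gave 291 calls, 450 with no filter, 917 with DESeq2, 577 with all 12 libraries, 86 in WT and 93 in KO libraries alone, and 287 to 551 with a library left out. Stimulation gave 444 calls, 1541 with DESeq2, 712 with voom, 101 in WT and 70 in KO libraries alone, and 51 to 1871 with a library left out. The interaction with stimulation gave 182 with DESeq2 and 0 with any library left out. That with age gave 14 with no filter, 104 with DESeq2, 4 with all 12 libraries and 4 to 57 with a library left out.

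No paired analysis was possible for KO against WT because the genotypes share no replicate numbers. Numbers are shared between fresh and stimulated and between young and old libraries of a genotype. Deviations of same-numbered libraries correlated at -0.00648 and 0.0118 between states and at -0.00657 and -0.00107 between ages. Fresh libraries of a group were far apart, so these values cannot decide whether the numbers pair the libraries. With the replicate block, 4 of the 8 genes changed on stimulation, since Ms4a2 was lost (adjusted p = 0.131), and over all genes 614 changed on stimulation, 438 with age and 7 in the interaction with age. At the depth of the young fresh libraries a count of 0 allows up to 1.87 CPM by counting error alone.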
